A study of Mus musculus with 12 samples.

Results

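The genes of the Hippo pathway's transcriptional arm were examined in mouse airway organoids after localized laser damage. They were taken by name from the deposited gene table: Yap1 and Wwtr1, Tead1 to Tead4, Lats1, Lats2, Amotl2 and Ajuba. These are 10 of the 55401 genes listed, and all 10 were among the 13792 genes with enough reads to be tested. Organoids were grown from lung epithelial cells of C57BL/6J wildtype mice of both sexes, aged 10 to 14 weeks. In every sample of both groups, the cells had been transduced with a lentivirus that expresses a Histone2A-mCherry fusion under a p63 promoter, which labels nuclei of cells where this promoter is active. For each ablation sample, 10 neighboring cells were ablated by femtosecond laser in each of the 45 organoids of a dish. For each control sample, a dish of 45 organoids in the same FluoroBrite DMEM medium was left untreated. Both were harvested 4.5 h later as whole organoids, so each sample holds RNA of cells near to and far from the damage. Each group held 6 samples, numbered 1, 3, 4, 5, 6 and 7. An ablation and a control sample of the same number shared passage and culture day and are called a pair. Passages were P2+14 in pairs 1 and 3, P2+15 in pairs 4 and 5 and P2+16 in pairs 6 and 7. Pairs 1, 3 and 5 carried one run of library numbers (library set 1) and pairs 4, 6 and 7 another (library set 2).

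In the Hippo pathway, the kinases MST1 and MST2 activate LATS1 and LATS2, which phosphorylate the coactivators YAP (encoded by Yap1) and TAZ (encoded by Wwtr1) and thereby keep them in the cytoplasm or mark them for degradation. When the kinases are less active, as at low cell density or under mechanical tension, YAP and TAZ enter the nucleus and bind DNA through the TEAD factors. In the airway, YAP is known as a regulator of basal stem cells and of their differentiation. This control acts on the phosphorylation, location and stability of proteins, none of which was measured here.

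Normalized counts per library summed to between 27600452 and 28247162 after ablation and between 27297949.8 and 28504389.9 in the control. Of the markers checked, the basal cell genes Krt5 (lowest library 229016, highest 340094) and Trp63 (6443 to 11436) were high in all 12 libraries. Of the 5 secretory genes, Cyp2f2 was high as well (26191 to 78597), whereas Scgb1a1, which defines club cells, was at 9.65 normalized counts or less. Scgb3a1 was at 39.0 to 126, and Scgb3a2 and Muc5b were at 21.4 or less. Of the 5 ciliated cell genes, Foxj1, Dnah5, Ccdc39 and Tppp3 were at 39.5 or less, and Tubb4b was at 10168 to 15295. Of the 5 alveolar genes, Sftpc and Sftpb were at 0 and Lamp3 and Ager at 26.9 or less, and Hopx was at 14293 to 20221. Summed markers were 17.0 to 48.3 for fibroblasts 6.04 to 21.4 for endothelium and 142 to 224 for immune cells (5 genes each), most of the last from Cd68 (88.8 to 158), with Col1a2, Kdr, Cldn5 and Cd3e at or near 0. In these bulk samples, fewer cells of a type and less RNA per cell cannot be told apart.

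Each gene had its own place in the GRCm38.p6 build. Yap1 (ENSMUSG00000053110.13) lies at chr9:7931999-8004596 on the minus strand and Wwtr1 (ENSMUSG00000027803.14) at chr3:57455649-57575910 on the minus strand. Tead3 (ENSMUSG00000002249.21) lies at chr17:28331671-28350817 (minus), Lats1 (ENSMUSG00000040021.13) at chr10:7681214-7716460 (plus), Amotl2 (ENSMUSG00000032531.15) at chr9:102716672-102733418 (plus) and Ajuba (ENSMUSG00000022178.11) at chr14:54567472-54577558 (minus). Lats2 (ENSMUSG00000021959.16) at chr14:57689662-57758388 shares 2955 exon bases on its strand with the gene model Gm49361, which was listed at 0, so its counts may miss reads that fit both. Exons of Yap1 overlap Gm20416 by 116 bases and those of Tead2 overlap Cd37 by 13 bases on the opposite strand. Both partners were below 1 normalized count on average (0.161 and 0.836).

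TEAD factors recognize the hexamer GGAATG, read as CATTCC on the other strand. RefSeq start sites of 8 of the 10 genes were at hand (GRCm38.p6, entries for Tead1 and Tead4 were missing), and the 250 bases before each start were searched on both strands. The hexamer was found before at least one start site of Yap1, Wwtr1, Tead3, Amotl2 and Ajuba, and not before those of Tead2, Lats1 and Lats2. Of all 27025 genes with an entry, 14.4% hold it in this window. Sites of the 5 of 8 members that hold it are shown, and any relation of the hexamer to their levels was not tested. Each line holds 30 bases, 5′ to 3′ on the strand of the gene, with the hexamer in capitals.
Yap1: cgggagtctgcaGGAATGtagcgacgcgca
Wwtr1: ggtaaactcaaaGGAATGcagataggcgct
Tead3: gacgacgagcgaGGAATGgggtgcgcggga
Amotl2: ctgaaactctcaCATTCCtggcatagcagc
Ajuba, first: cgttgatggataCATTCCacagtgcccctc
Ajuba, second: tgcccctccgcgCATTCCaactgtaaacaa
The hexamer starts 141 bases before the start site in Yap1 (chr9:8004720-8004749), 136 bases in Wwtr1 (chr3:57576029-57576058) and 182 bases in Tead3 (chr17:28350970-28350999). That of Amotl2 lies 65 bases before the RefSeq start (chr9:102717727-102717756), at a place that overlaps an annotated GENCODE exon of the gene. The sites of Ajuba lie 186 and 164 bases before the RefSeq start (chr14:54577830-54577859 and chr14:54577808-54577837). The bases that follow this start were not found in a GENCODE transcript of Ajuba. The annotated gene begins further downstream, at chr14:54577558 on the minus strand, and from there both sites are farther away. Tead3 has 2 more at a downstream start site, inside an annotated exon. A match of these letters is a description of the window and not evidence of binding.

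Per length of exon, Ajuba was the most abundant member by far (2686 ± 223 normalized counts per kb, SD over 12 libraries). Ajuba encodes a LIM-domain scaffold that binds LATS kinases at cell junctions. Wwtr1 (518 ± 41.8 per kb), Yap1 (503 ± 30.7 per kb) and Amotl2 (483 ± 56.2 per kb) followed, and the ranges of these neighbors overlapped. Among the DNA-binding partners, Tead4 (222 ± 31.3 per kb), Tead3 (175 ± 16.2 per kb) and Tead1 (175 ± 13.0 per kb) also overlapped, while Tead2 was far lower (10.99 ± 2.37 per kb). The kinase genes Lats1 (60.7 ± 5.38 per kb) and Lats2 (46.5 ± 7.01 per kb) lay between, again with overlapping ranges. The order in the middle depends on the length used. By coding length, Yap1 (3180.5 per kb) lay above Wwtr1 (1825 per kb), and Tead1 (1813 per kb) above Tead3 (842 per kb) and Tead4 (623 per kb). Ajuba stayed first and Tead2 last by exon length, longest transcript and coding length.

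**Figure D1:**
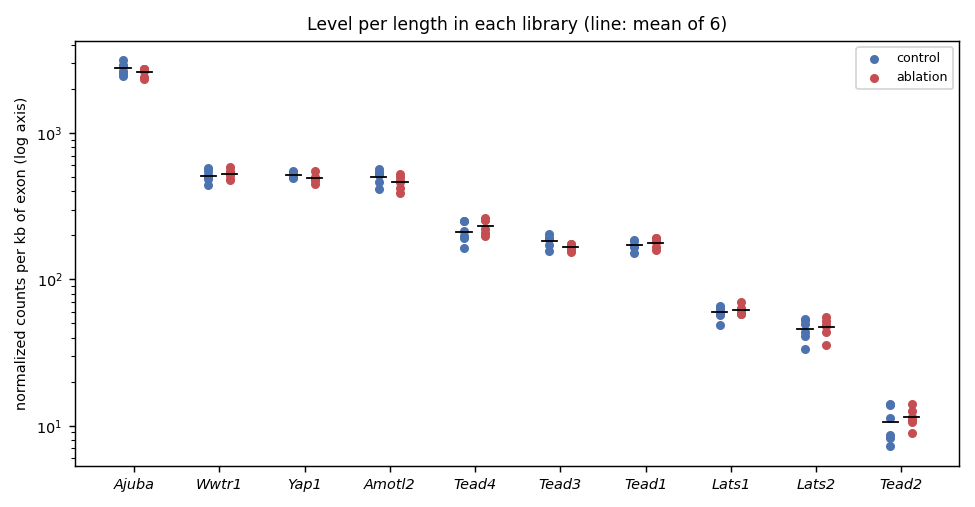
Normalized counts per kb of exon on a log axis for the 10 genes, ordered by their mean over 12 libraries, with control (blue) and ablation (red) libraries as points and the mean of 6 as a line. Ajuba lies above all others at 2352 to 3151 per kb and Tead2 below all others at 7.22 to 14.1 per kb.

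For the comparison of ablation with control, log2 values were fitted with limma in a model of condition and library set, and in a paired model with the pair in place of the library set. No member passed an adjusted p of 0.05 in either model. In the first, 0% of all tested genes passed, and in the paired model 1.09%. At an unadjusted p under 0.05, 1 of 10 members, Tead3, passed in the library set model, against 7.85% of all tested genes. In the paired model Yap1, Tead3 and Amotl2 passed at this level (3 of 10), against 17.6% of all genes. For no member were the values of the groups separate, which occurred higher in 0.247% and lower in 0.21% of all genes. The median log2 fold change of the 10 genes was 0.05, and that of all tested genes -0.0036. The median absolute change was 0.0818 and 0.0729, respectively. With edgeR on the whole reads recovered for 9 libraries (4 ablation, 5 control), 0 members passed, and 0 had an unadjusted p under 0.05. Ablation samples 3 and 4 and control 4 were not in this test, so it lacked pair 4, where Yap1 and Tead3 fell most.

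**Figure D2:**
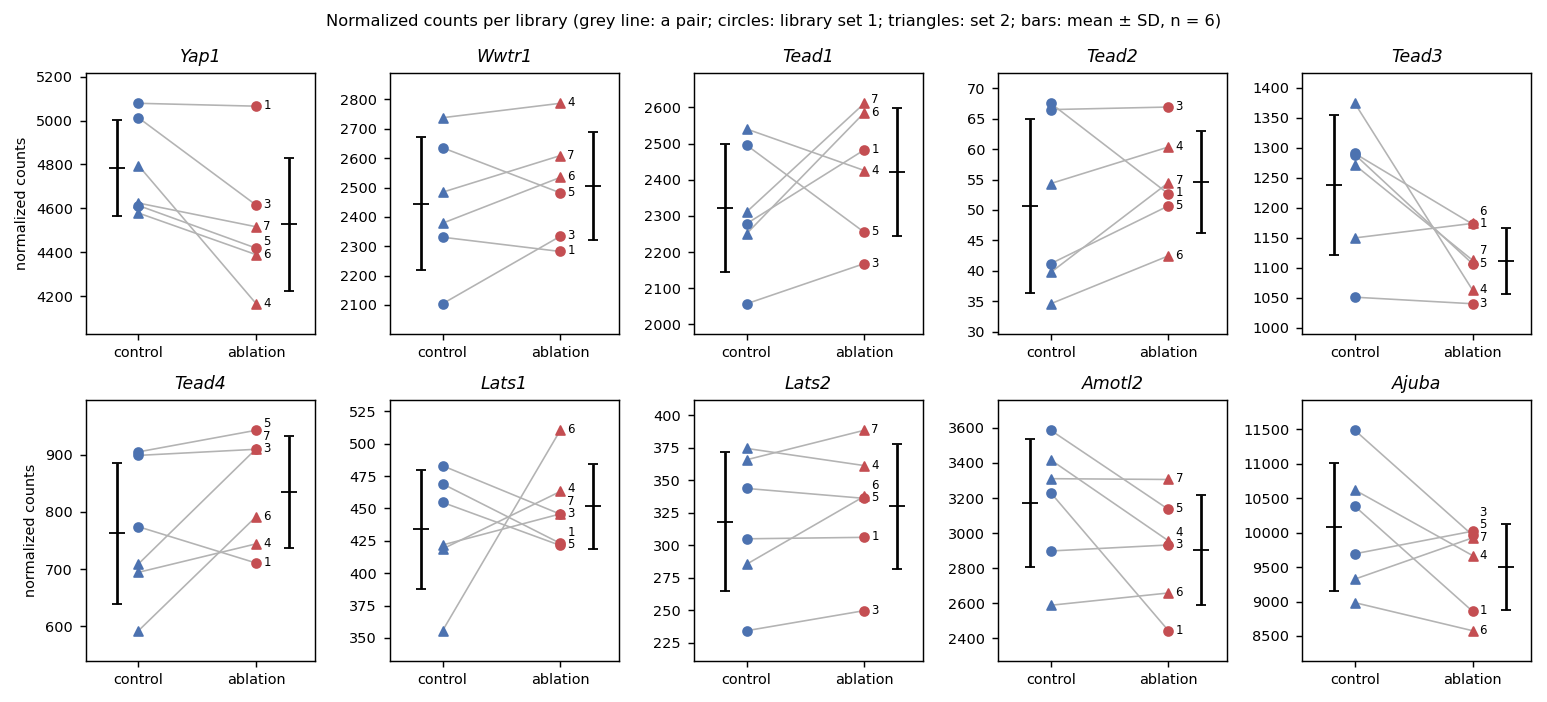
Normalized counts of each gene in the 12 libraries, on y axes that do not start at 0, control left and ablation right, grey lines joining pairs (pair numbers at the right, in the order of the ablation values), circles for library set 1, triangles for library set 2, and bars for mean ± SD of 6. The groups overlap for all 10 genes, and the lines of Yap1 slope down in all 6 pairs.

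Of the coactivators, Yap1 had 4166 to 5065 normalized counts (median 4468) in ablation libraries, against 4579 to 5078 (median 4709.8) in controls. It was lower after ablation in each of the 6 pairs, with changes from -0.257% in pair 1 to -13.1% in pair 4. A lower value in all pairs was seen for 1 of 10 members and for 4.63% of all tested genes, and a higher value in all pairs for 0 of 10 and 5.17%. In the library set model, the 95% confidence interval of the change ran from -11.7% to 1.25% (adjusted p = 0.698), so larger falls than the lower bound lie outside it. In the paired model it ran from -10.5% to -0.0107% (unadjusted p = 0.0496, adjusted p = 0.283). Wwtr1, the gene of the paralog TAZ, had 2282 to 2787 (median 2508) in ablation libraries, against 2104 to 2738 (median 2431) in controls. The groups spanned nearly the same range, and Wwtr1 was higher in 4 of 6 pairs. Its interval ran from -6.04% to 11.99% (adjusted p = 0.898, paired model 0.673). The ratio of Yap1 to Wwtr1 per kb of exon was 0.941 ± 0.128 after ablation and 1.02 ± 0.131 in the control (SD, n = 6), and its size depends on the length used.

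Tead3 had the smallest p-value of the 10 genes in both models. Ablation libraries held 1040.1 to 1174 normalized counts (median 1109.6), and controls 1051 to 1374 (median 1279.9). The 4 highest control libraries, 1, 4, 5 and 7, lay above every ablation library, while controls 3 and 6 lay within their range. The log2 fold change was -0.15 ± 0.07 (SE, adjusted p = 0.629), with an interval from -18.3% to -0.619%. In the paired model the interval ran from -16.8% to -2.44% (unadjusted p = 0.0141, adjusted p = 0.174), and Tead3 was lower in 5 of 6 pairs. Tead4 went the other way, with 711 to 942 (median 851) after ablation and 593 to 905 (median 742) in the control. It was higher in 5 of 6 pairs, by 33.6% in pair 6 and 28.3% in pair 7 but by 7.15% or less in the other pairs where it was higher. The interval of Tead4 ran from -4.32% to 26.6% (adjusted p = 0.740, paired model 0.310). Tead1 had 2168 to 2612 (median 2454) in ablation libraries and 2057 to 2540.5 (median 2295) in controls, with an interval of -4.31% to 13.6% (adjusted p = 0.823). Tead2, measured with 34 to 70.0 reads per library where reads were recovered, had 42.5 to 66.9 and 34.6 to 67.6, respectively. Its interval was the widest, from -15.1% to 42.8% (adjusted p = 0.867).

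As shares of summed TEAD counts per kb of exon, Tead4 made up 39.4 ± 3.61% after ablation and 36.6 ± 4.42% in the control. Tead3 made up 28.2 ± 1.69% and 31.9 ± 2.66%, Tead1 30.4 ± 2.30% and 29.7 ± 2.17%, and Tead2 1.95 ± 0.338% and 1.83 ± 0.492%. All shares overlapped between the groups. Summed TEAD counts per kb of exon were 0.580 ± 0.0277 times those of Yap1 and Wwtr1 together after ablation and 0.562 ± 0.0318 times in the control. These shares and this ratio depend on the length used. Of the TEAD genes, Tead1 was highest by coding length (1813 per kb) and Tead3 by longest transcript (341 per kb).

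The kinase gene Lats1 had 421 to 510.4 normalized counts (median 446) in ablation libraries, against 356 to 483 (median 438) in controls. Its overall interval ran from -7.54% to 17.9% (adjusted p = 0.875, paired model 0.738). The pairs disagreed by library set. Lats1 was lower after ablation in the 3 pairs of set 1, with changes of -9.78%, -7.73% and -7.30%, and higher in the 3 pairs of set 2, with 10.6%, 43.4% and 5.68%. The test of this difference between responses gave 0.37 on the log2 scale (95% interval 0.08 to 0.66, unadjusted p = 0.0154, adjusted p = 0.999). With the pair as a term, the adjusted p was 0.585. At an unadjusted p under 0.05, Lats1 alone of the members passed this test (1.67% of all genes, 0% after adjustment), and Lats1 and Tead4 with the pair as a term (7.88% of all genes, 0.00725% after adjustment). Opposite responses of this kind, complete in both sets, were found in 3.2% of all tested genes. In pair 6, the control held the lowest (356) and the ablation sample the highest (510.4) count of all 12 libraries. Without this pair, the overall log2 fold change went from 0.06 to -0.030. Lats2, the second LATS kinase gene, had 249.8 to 388 (median 337) in ablation libraries and 234 to 374 (median 324) in controls. Over the 6 pairs, its ablation and control log2 values correlated with r = 0.91. The interval of the change ran from -11.8% to 22.7% (adjusted p = 0.922).

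The scaffold genes Amotl2 and Ajuba had lower means after ablation. Amotl2, which encodes a motin family protein that binds YAP, had 2444 to 3306 normalized counts (median 2944) in ablation libraries, against 2589 to 3586 (median 3270.1) in controls. It was lower in 4 of 6 pairs, with changes of -24.3%, -13.5% and -12.6% in pairs 1, 4 and 5 but -0.134% in pair 7. The interval ran from -19.8% to 4.78% in the library set model (adjusted p = 0.754). In the paired model it ran from -15.6% to -0.387% (unadjusted p = 0.0416, adjusted p = 0.260). Ajuba had 8576 to 10021 (median 9796) in ablation libraries and 8983 to 11488 (median 10038) in controls, and was lower in 4 of 6 pairs. Its interval ran from -14.0% to 3.67% (adjusted p = 0.774, paired model 0.373). For both genes the pairs with the lowest ratios were 1, 4 and 5.

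**Figure D3:**
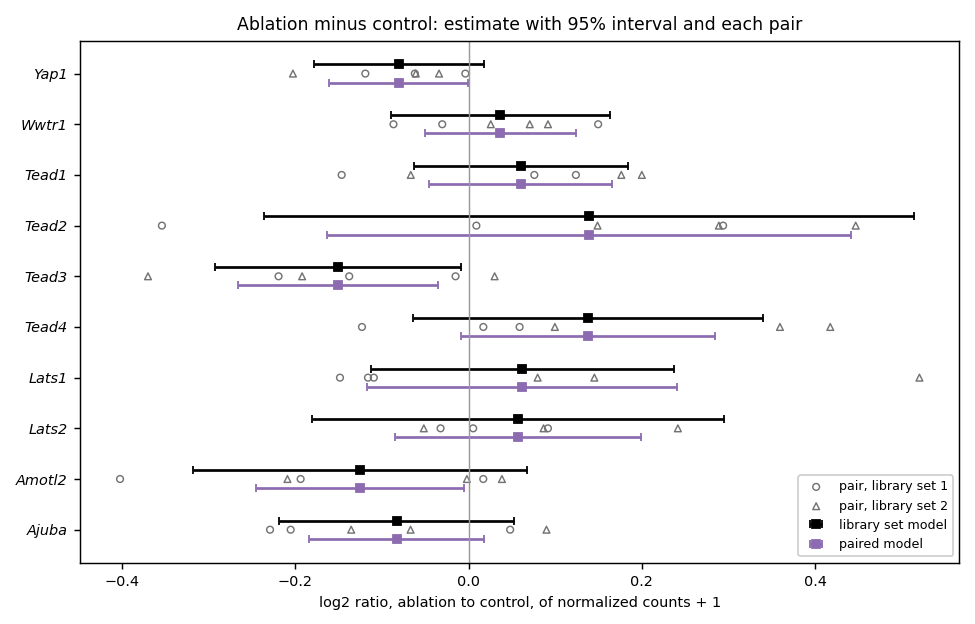
Log2 ratio of ablation to control for each gene, with the estimate and 95% confidence interval of the library set model (black) and the paired model (purple) and the 6 pairs as open symbols (circles: library set 1, triangles: library set 2). Intervals of the library set model include 0 for all genes but Tead3, and those of the paired model for all but Yap1, Tead3 and Amotl2. The intervals are not adjusted for the number of genes. The Lats1 circles all lie below 0 and its triangles all above.

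The levels were also compared between library sets, passages and culture days, since these differ between pairs. No member passed an adjusted p of 0.05 between the library sets, where 0.95% of all tested genes did. Unadjusted, 3 of 10 members were under 0.05 (19.9% of all genes). Wwtr1 and Lats2 were higher in set 2 (by 9.71% and 19.6%) and Tead4 was lower (by 13.8%), with adjusted p-values from 0.219 to 0.230. For culture day (days 14 to 20), 0 members had an unadjusted p under 0.05, against 5.39% of all genes, and 0% of all genes passed after adjustment. For passage, 0 members passed after adjustment, where 0.0363% of all genes did, and 1 member was under 0.05 unadjusted (12.2% of all genes). This was Tead2, with mean normalized counts of 63.4 at P2+14, 51.6 at P2+15 and 42.8 at P2+16 (n = 4 libraries each), a slope of -0.28 on the log2 scale per passage over 6 pair means (unadjusted p = 0.0228, adjusted p = 0.342). Passage and library set overlap in part, as P2+14 occurs only in set 1, P2+16 only in set 2 and P2+15 in both, and their separate parts were not tested.

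For the coactivators, the slope per passage did not pass (Yap1 unadjusted p = 0.128, adjusted 0.531; Wwtr1 unadjusted p = 0.179, adjusted 0.582). Wwtr1 lay between 2104 and 2334 normalized counts in the 4 libraries of P2+14 and between 2378 and 2787 in the other 8. Its values thus did not overlap, a pattern chosen after the values were seen that 1 of 10 members and 2.35% of all tested genes show in this direction. In the other direction it was 0 of 10 members and 2.24% of all tested genes. Yap1 averaged 4943 at P2+14 and 4498 and 4527 at the later passages, with overlapping ranges. Per kb of exon, the ratio of Yap1 to Wwtr1 was between 1.02 and 1.23 in the 4 libraries of P2+14, between 0.772 and 0.919 at P2+15 and between 0.894 and 0.994 at P2+16. This ratio holds the same Wwtr1 values as the pattern above and was not tested. By longest transcript Yap1 (882 per kb) lay above Wwtr1 (527 per kb), so whether the ratio is above or below 1 depends on the length used. The ratio of Lats1 to Lats2 per kb of exon was between 1.32 and 1.97 at P2+14, between 1.07 and 1.26 at P2+15 and between 1.10 and 1.44 at P2+16. Its size depends on the length used. By longest transcript Lats2 (62.4 per kb) lay slightly above Lats1 (61.4 per kb), and by coding length below it (104 against 131 per kb). Counts of Lats2 may also miss reads shared with Gm49361.

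Over the 12 libraries, log2 values of several members moved together. These libraries share 6 pairs, so the correlations describe this set and carry no test. Of all pairings of members, the highest were Wwtr1 and Lats2 (r = 0.86), Amotl2 and Ajuba (r = 0.84) and Tead1 and Lats2 (r = 0.81). The lowest was Yap1 and Wwtr1 (r = -0.67). For Amotl2 and Ajuba, the 6 differences between ablation and control also correlated (r = 0.84), and for Wwtr1 and Lats2 this value was 0.66. Such values were not particular to these genes. They were 0.84 for Tead3 and Lats2, 0.83 for Wwtr1 and Ajuba and for Tead4 and Lats1, and 0.82 for Tead2 and Tead4. The lowest was -0.26, for Yap1 and Wwtr1. Over all tested genes, those most like Yap1 were Pip4k2b, Zc3h7b and Sema4a (r = 0.96 each). Most like Wwtr1 were Pik3c2a (r = 0.97), Defb1 and Zfyve16 (r = 0.93 each), and most like Amotl2 were H2-Bl (r = 0.88), Phldb2 and Ccdc12 (r = 0.87 each).

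**Figure D4:**
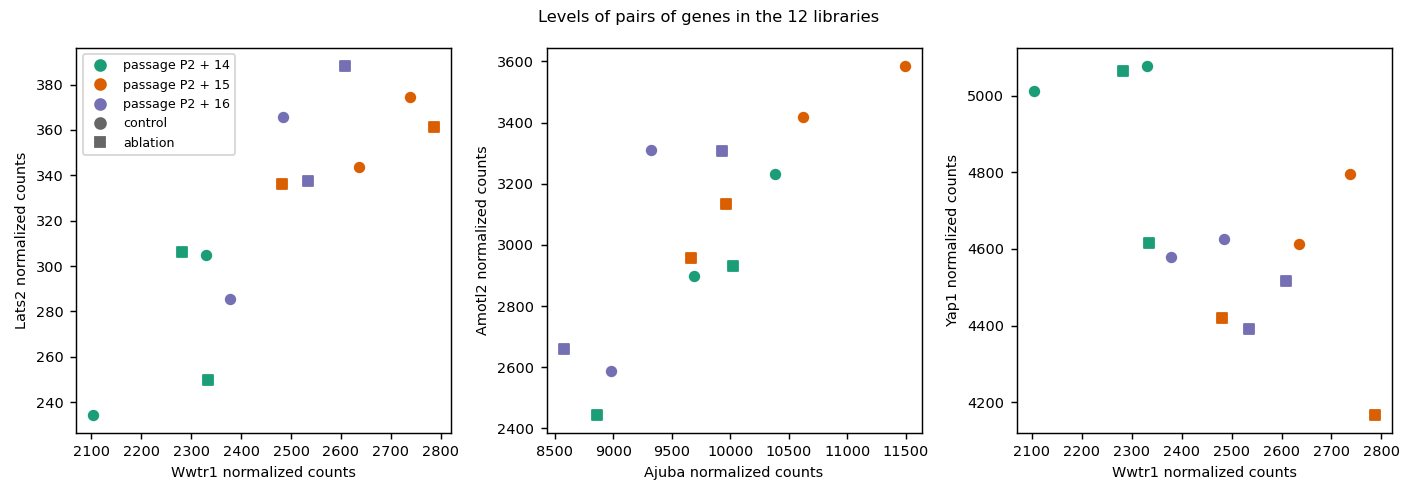
Normalized counts of Lats2 against Wwtr1, Amotl2 against Ajuba and Yap1 against Wwtr1 in the 12 libraries, colored by passage, with circles for control and squares for ablation. The 4 libraries of P2+14 hold the lowest Wwtr1 values, 2104 to 2334, and 3 of these libraries hold the highest Yap1 values.

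Genes around the members were grouped by role, in lists chosen with earlier results of these data known. The study had already named Stk38 and Tgfb2 among its differentially expressed genes, from these same libraries. Of 25 genes of kinases and regulators upstream of LATS or, for Stk38 and Stk38l, related to it, 23 were tested (Fat4 and Dchs1 were not), of which 12 had a log2 fold change above 0 and 11 below. Their median was 0.01 (-0.0036 over all tested genes). None passed in the library set model, and 1 of 23 had an unadjusted p under 0.05 (7.85% of all genes). In the paired model 6 of 23 were under 0.05 unadjusted (17.6% of all genes), and 1 of 23 passed after adjustment (1.09% of all genes). In all 6 pairs, 3 of 23 were higher and 1 of 23 lower (5.17% and 4.63% of all genes). The gene that passed was Stk38, of the kinase NDR1, which is a relative of the LATS kinases and not upstream of them. Stk38 had 3729.7 to 5635 normalized counts in ablation libraries and 3185 to 4765 in controls, overlapping but higher after ablation in 6 of 6 pairs. Its change was 0.19 on the log2 scale (adjusted p = 0.690, paired model 0.0465). In the paired model without any one of the pairs its adjusted p was at least 0.0651, so the call rests on all 6. Nf2, the gene of merlin, an upstream activator of the pathway, had 4137 to 5359 in ablation libraries and 4759 to 5581 in controls and was lower in 6 of 6 pairs (log2 fold change -0.13, adjusted p = 0.630, paired model 0.117). Map4k5 and Taok1, which encode kinases able to activate LATS, were higher in 6 of 6 pairs (0.12 and 0.09, paired adjusted p = 0.158 and 0.191). The core genes Stk4 and Stk3, of the kinases MST1 and MST2, had -0.0043 and -0.0069 on the log2 scale (95% intervals -0.08 to 0.07 and -0.12 to 0.10). Sav1, the gene of the MST scaffold, had -0.06 (adjusted p = 0.825) and Mob1a, of a LATS cofactor, 0.08 (0.682). Mob1b, its paralog, did not pass for ablation (0.04, adjusted p = 0.878) but was higher in library set 2 than in set 1 (0.27, adjusted p = 0.0380).

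Of 25 binding partners and regulators of YAP, TAZ and the TEADs, 23 were tested (Vgll1 and Vgll2 were not). 10 were above 0 and 13 below, with a median of -0.03, and 0 passed in either model (2 of 23 had an unadjusted p under 0.05 in each, against 7.85% and 17.6% of all genes). The smallest p-values were those of Csnk1e, a casein kinase gene (log2 fold change 0.13, adjusted p = 0.537, paired model 0.120), and Strn3, a subunit gene of the phosphatase complex STRIPAK that opposes MST kinases (0.20, adjusted p = 0.597, paired model 0.0603). Both were higher in 6 of 6 pairs. In this list that held for 2 of 23 genes (5.17% of all genes), and 1 of 23 was lower in all pairs (4.63% of all genes). The 14-3-3 gene Ywhaz was lower in 6 of 6 pairs (-0.07, paired adjusted p = 0.305) and Wtip, an Ajuba relative, higher in 5 of 6 (0.11, paired adjusted p = 0.406).

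Of 22 target genes of YAP and TEAD, 21 were tested (Ccdc80 was not). The list includes the members Lats2 and Amotl2, and Ptpn14, which is also counted among the binding partners. 8 were above 0 and 13 below, with a median of -0.04, and 0 passed in the library set model (1 of 21 had an unadjusted p under 0.05, against 7.85% of all genes). In the paired model 1 of 21 passed after adjustment (1.09% of all genes). At an unadjusted p under 0.05 it was 5 of 21 (17.6% of all genes), among them the member Amotl2. In all 6 pairs, 1 of 21 was higher and 1 of 21 lower (5.17% and 4.63% of all genes). The gene that passed was Tgfb2, the gene of a TGF-β ligand, with 376 to 691 normalized counts in ablation libraries and 269 to 532 in controls. These ranges overlapped, but Tgfb2 was higher in 6 of 6 pairs (log2 fold change 0.30, paired adjusted p = 0.0332, library set model 0.698). The paired adjusted p was 0.0480 without pair 1 and from 0.0518 to 0.144 without any one of the other pairs. The targets most used as readouts varied strongly between dishes. Ccn1 ranged from 279 to 768, Ccn2 from 600.5 to 2034 and Ankrd1 from 4.87 to 47.9 normalized counts. Their log2 fold changes were -0.06, -0.15 and -0.24, with 95% intervals of -0.52 to 0.41, -0.65 to 0.34 and -1.27 to 0.78. In the paired model the intervals were narrower, at -0.43 to 0.32, -0.50 to 0.19 and -0.75 to 0.27, and all included 0. Leaving out 1 pair moved Ccn1 between -0.19 (without pair 3) and 0.085 (without pair 1), Ccn2 between -0.23 (without pair 6) and -0.029 (without pair 5) and Ankrd1 between -0.42 (without pair 3) and -0.038 (without pair 6). Rbms3 (-0.16, adjusted p = 0.619), Arhgef17 (-0.15, adjusted p = 0.633) and Foxf2 (0.44, adjusted p = 0.684) had the smallest p-values of the list in the library set model. Foxf2 had 12.8 to 37.4 normalized counts per library.

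**Figure D5:**
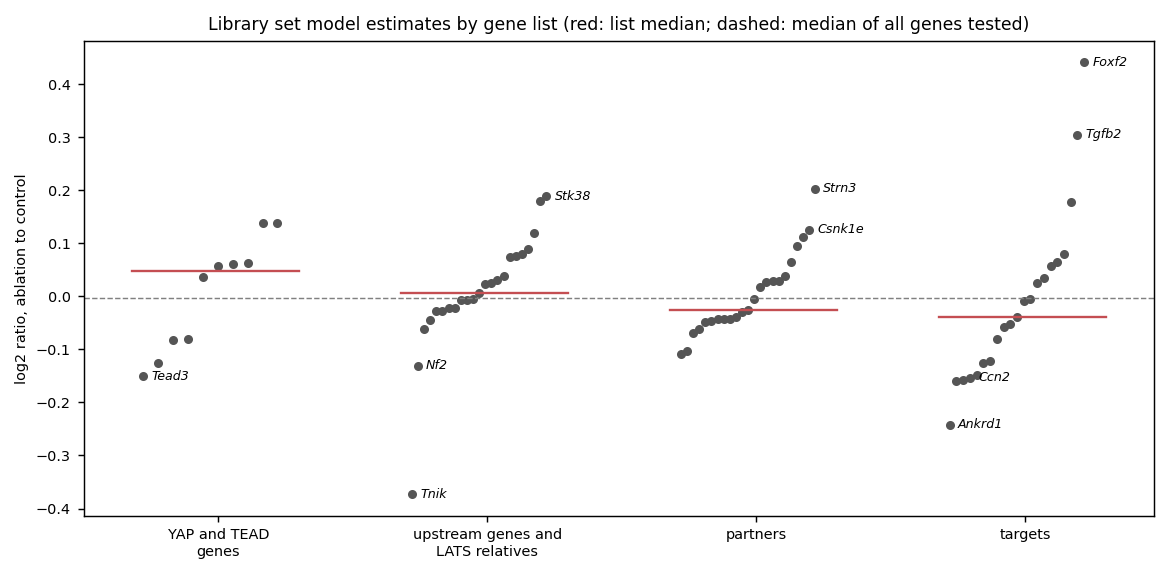
Log2 ratio of ablation to control in the library set model for each tested gene of the 4 lists (points, sorted within a list), with list medians in red and the median of all tested genes dashed. List medians lie at 0.05, 0.01, -0.03 and -0.04, and most points lie within 0.2 of 0.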

How the data were processed

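Values used here are signal values, the normalized counts which the authors made with DESeq2 by dividing each library's reads by a size factor, after the nf-core RNA-seq pipeline and GENCODE annotation of GRCm38.p6. Poly(A) RNA was sequenced from stranded libraries, and the strand setting of counting is not given in the sources used here. The deposited table also holds the authors' own log2 fold changes, standard errors, Wald statistics and p-values, which were not used. Genes that reached 10 normalized counts in 6 or more libraries were tested with limma 3.58.1 (R 4.3.3; log2 of normalized count + 1, trended robust eBayes) on condition and library set, and p-values were adjusted by Benjamini-Hochberg over 13792 genes, with a threshold of 0.05. Library set stands for the batch factor that the study names without defining. The titles of controls 4, 6 and 7 contain the word ablation; they were grouped by their treatment label. Library values were whole multiples of a step, which for 9 libraries gave 23631212 to 29775699 reads, and these were tested with edgeR 4.0.16. Pairing comes from the labels (same passage and day). Deviations of same-numbered samples from group means correlated across genes with r from 0.21 to 0.62. Fold changes refer to values plus 1 and understate those of low genes. Levels were divided by the union of GENCODE M21 exons. The tests were tried on simulated data. The members and lists were chosen with earlier results of these data known. Named list genes are 9 core genes, those past the threshold in either model and the 4 smallest p-values per list. The p-values of the library set model measure the spread between dishes of organoids. Those of the paired model measure the spread of the differences within the 6 pairs, and those for passage and day the spread of 6 pair means. Whether the pairs came from different animals is not given in the sources used here.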

Additional observations from a re-analysis of the deposited data

Results flagged for a closer look

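Lats1 was lower after ablation in all 3 pairs of library set 1 and higher in all 3 pairs of set 2. Such a complete split was found in 3.2% of all tested genes. The difference between the responses was 0.37 on the log2 scale in limma (95% interval 0.08 to 0.66), with an unadjusted p of 0.0154 and an adjusted p of 0.999. Pairs 4 and 5, which share passage P2+15 and lie in sets 2 and 1, changed by 10.6% and -7.30%. The separate parts of library set and passage were not tested.

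Rbms3, a YAP target gene, had 895 normalized counts in ablation sample 5, while the other 5 ablation samples lay between 1013 and 1072. This was the 1 value that stood apart by Dixon's test among 60 groups of 6 samples, a test that singles out about 1 group in 20 by chance.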

How the results depend on the processing

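The members were recomputed under 23 alternatives of model, scaling, filter, pseudocount, libraries and test. No member passed the threshold under any, and 7 of 10 kept their direction under all. The lowest adjusted p of a member was 0.121 (Tead3, paired model without 1 pair). Exceptions in direction were Lats1 without replicate 6 (-0.030 in both models, with a range of -0.030 to 0.10 over the left-out pairs), and in library set 1 alone Lats1 (-0.12), Tead2 (-0.017) and Tead4 (-0.016). The cause was not tested. The number of genes passing was 0 in the library set model (0 without any one pair) and 150 with the replicate block, that is the paired model. Without pairs 1, 3, 4, 5, 6 and 7 the paired model passed 176, 90, 8, 77, 106 and 140 genes. The number was 3 with all genes with any count tested, 16 in library set 1 alone and 109 in set 2 alone, and 0 with edgeR (809 of 13837 at an unadjusted p under 0.05). TMM and quantile scaling left the median of all genes at -0.0019 and -0.0032. The same alternatives were run on the named list genes after seeing the data. Near 0, directions turned for Ccn1 (0.085 without pair 1, 0.012 without pair 5, 0.076 in set 2 alone, range -0.19 to 0.085 over left-out pairs), Ccn2 (0.11 in set 2 alone), Stk3 (0.018 without pair 5, 0.026 in set 2 alone, range -0.020 to 0.018) and Stk4 (0.0026 without pair 4, range -0.013 to 0.0026). Strn3 passed in the paired model without pair 1 (adjusted p = 0.0423). Under their alternatives, 0 members passed for library set (pair means), passage and day (control libraries alone) and the difference between responses (replicate block). At the lowest depth, counting error is 17.1% of the Tead2 value and 6.61% or less for the other members, which limits what could be seen for Tead2.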
